A study of Mus musculus with 23 samples.

Results

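The 10 genes described here mark the endothelium of brain capillaries and the blood-brain barrier that it forms: Cldn5, Pecam1, Flt1, Tek, Slc2a1, Slco1a4, Abcb1a, Mfsd2a, Itm2a and Ly6c1. They were taken by gene symbol from a table of read counts that lists 55335 genes, and all 10 were present once. Expression was measured by RNA-seq of whole hippocampus in 23 libraries from female mice of 2 strains. The 3xTg strain is a model of Alzheimer's disease that carries transgenes for mutant human APP and mutant human tau, which the Thy1 element expresses in neurons. WT mice were of a C57BL/6J x 129S1 background.

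Unoperated mice were taken at 8 months (WT-8M, n = 4; 3xTg-8M, n = 4). Mice of 10 months had received a 28-day intracerebroventricular infusion through an osmotic pump, either of vehicle (0.8% DMSO in artificial cerebrospinal fluid: WT-D, n = 4; 3xTg-D, n = 4) or of the stearoyl-CoA desaturase inhibitor ab142089 (SCDi) at 80 µM in that vehicle (WT-S, n = 3; 3xTg-S, n = 4). SCDi blocks the enzyme that makes monounsaturated from saturated fatty acids. The comparisons ask how the strains differ at each age and how the infused inhibitor changes expression in each strain. All infused groups carried a cannula and pump, and the 8-month groups carried neither, so age and surgery cannot be told apart.

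Endothelial cells of brain capillaries are sealed by tight junctions and carry few transport vesicles, so that most solutes cross only through transporters. The barrier is induced and kept by signals from the neural tissue, among them Wnt ligands, and by pericytes, which sit on the capillary wall. Loss of these properties is studied in Alzheimer's disease and in aging. Fewer endothelial cells and less RNA per endothelial cell cannot be told apart in bulk tissue. Some members are also made elsewhere: Slc2a1 by astrocytes and choroid plexus epithelium, Pecam1 by leukocytes and platelets, and Ly6c1 by monocytes.

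Promoter sequence is shown for 3 members on which the results turn: Slc2a1, which differed most between the 8-month groups, and Itm2a and Tek, the pair that varied together most closely over all 23 libraries (without 1 library, 3xTg-D replicate 3, other pairs were closer). The sequences are from RefSeq (GRCm38.p6), end at the base before the first exon, and are written 5′ to 3′ on the gene's own strand. Capitals mark matches, on either strand, to the ETS core AGGAAG, the SOX core ACAAAG or the GC box GGGCGG. The Slc2a1 stretch is chr4:119108495-119108710 on the plus strand, with 1 GC box. The Itm2a stretch is chrX:107403377-107403610 on the minus strand, with 2 overlapping ETS matches and 1 GC box. The Tek stretch is chr4:94739039-94739288 on the plus strand, with 1 SOX match.
Slc2a1: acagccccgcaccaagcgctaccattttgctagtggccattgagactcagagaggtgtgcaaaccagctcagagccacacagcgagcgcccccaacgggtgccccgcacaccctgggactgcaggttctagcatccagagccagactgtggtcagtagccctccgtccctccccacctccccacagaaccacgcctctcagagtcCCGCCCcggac
Itm2a: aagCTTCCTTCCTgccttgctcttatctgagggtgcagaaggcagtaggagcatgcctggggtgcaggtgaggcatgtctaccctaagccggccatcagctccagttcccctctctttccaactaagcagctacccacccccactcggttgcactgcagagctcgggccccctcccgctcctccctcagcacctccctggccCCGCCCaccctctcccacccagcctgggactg
Tek: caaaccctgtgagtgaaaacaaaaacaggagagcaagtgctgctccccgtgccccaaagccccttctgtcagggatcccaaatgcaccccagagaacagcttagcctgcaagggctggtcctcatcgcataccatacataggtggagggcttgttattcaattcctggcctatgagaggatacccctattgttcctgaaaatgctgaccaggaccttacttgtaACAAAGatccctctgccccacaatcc

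ETS and SOX factors act in endothelial gene programs, and GC boxes bind Sp-family factors. Over the 250 bases upstream of the start, with both strands searched, 9 members had a RefSeq promoter and Pecam1 did not. The ETS core was present in 5 of 9 (Flt1, Slco1a4, Abcb1a, Itm2a and Ly6c1) against 29.5% of all 32851 promoters. The SOX core was present in 3 of 9 (Tek, Abcb1a and Ly6c1) against 16.5%, and the GC box GGGCGG in 4 of 9 (Cldn5, Flt1, Slc2a1 and Itm2a) against 32.7%. The TATA box TATAAA was found in Flt1 and Ly6c1 and in 12.4% of all promoters. The TCF/LEF core ATCAAAG, the type of site through which Wnt signals act, was found in 0 of 9 and in 3.21% of all promoters. The G+C content of these windows ran from 39.2% in Slco1a4 to 70.4% in Flt1, around a median of 52.4% over all promoters. The RefSeq start of Abcb1a lies 93.0 kb upstream of the gene start in the count table, so its window belongs to another start. A match of this kind is a description of letters and not a bound site.

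In the genome (GRCm38, coordinates as in the count table) the members lie on 7 chromosomes. Cldn5, a claudin that seals the tight junction, is at chr16:18776847-18778262 on the plus strand. Pecam1, an adhesion molecule of endothelial contacts, is at chr11:106654217-106750628 on the minus strand. The receptor genes are Flt1 (VEGF receptor 1), at chr5:147561604-147726011 on the minus strand, and Tek (the angiopoietin receptor Tie2), at chr4:94739289-94874976 on the plus strand. The transporter genes are Slc2a1 (the glucose transporter GLUT1), at chr4:119108711-119137983 on the plus strand, and Slco1a4 (an organic anion transporter), at chr6:141805440-141856199 on the minus strand. Abcb1a (the efflux pump P-glycoprotein) is at chr5:8660077-8748575 on the plus strand, and Mfsd2a (the carrier of lysolipids with docosahexaenoic acid, which also restrains vesicle transport) at chr4:122946850-122961188 on the minus strand. Itm2a, a membrane protein enriched in brain endothelium, is at chrX:107397099-107403376 on the minus strand, and Ly6c1, a surface protein anchored by a lipid, at chr15:75044018-75048830 on the minus strand.

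Values are in CPM: a gene's reads in a library scaled to 1000000 reads assigned to genes, while the tests of fold changes also scaled library sizes by the trimmed mean of M values (TMM). Libraries held 12802267 to 36686413 reads assigned to genes, and 3 of the 8-month libraries were the deepest. All 10 members were expressed in all 23 libraries and passed the filter on low counts in all comparisons. Of 75-base windows of the transcripts, 76.8% were unique to Ly6c1, with the rest shared with Ly6a or Ly6c2. The share was 87.3% for Abcb1a, 98.2% for Slco1a4, 99.0% for Slc2a1 and 100% for the other 6 members. Ly6c1 and Abcb1a thus had the largest shares of windows also found in other genes. Those of Abcb1a were shared with Abcb1b, Abcb4 or Gm42686, and Gm42686 overlaps Abcb1a on the opposite strand. How many belonged to each was not counted. Those of Slc2a1 were shared only with Gm12868, which overlaps it on the opposite strand. Ly6c2 itself had 0 to 3 counts per library and Abcb1b, the close copy of Abcb1a, 4.06 to 7.52 CPM. The level of Ly6a was not examined, so its part in the reads of Ly6c1 is not known. Genes on the opposite strand overlap 2.99% of the exon bases of Slc2a1 and 10.1% of those of Abcb1a, and whether reads were counted by strand is not given in the sources used here.

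Levels of different members were compared per kilobase of the longest transcript, as mean ± SD over 23 libraries. Itm2a had the highest level, 24.8 ± 4.03 CPM per kb, followed by Ly6c1 at 22.4 ± 3.29 and Slc2a1 at 21.2 ± 2.81. These 3 did not differ beyond their spread: Itm2a was above Ly6c1 in 16 of 23 libraries and Ly6c1 above Slc2a1 in 15. Cldn5 (14.8 ± 2.96 CPM per kb) and Slco1a4 (13.4 ± 1.44) came next and were below Slc2a1, Cldn5 in all 23 libraries. Cldn5 and Slco1a4 overlapped each other, with Cldn5 the higher in 15 libraries. Flt1 (9.09 ± 0.856 CPM per kb) and Mfsd2a (8.84 ± 1.87) overlapped as well, with Flt1 the higher in 12. Abcb1a (6.05 ± 0.735) and Pecam1 (6.01 ± 0.839) overlapped, and Tek was the lowest, at 3.23 ± 0.528 CPM per kb, below Pecam1 in all 23. The order depends on the length used, since per kilobase of all exons joined Ly6c1 was at 11.3, Flt1 at 4.64 and Pecam1 at 3.32 CPM.

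**Figure D1:**
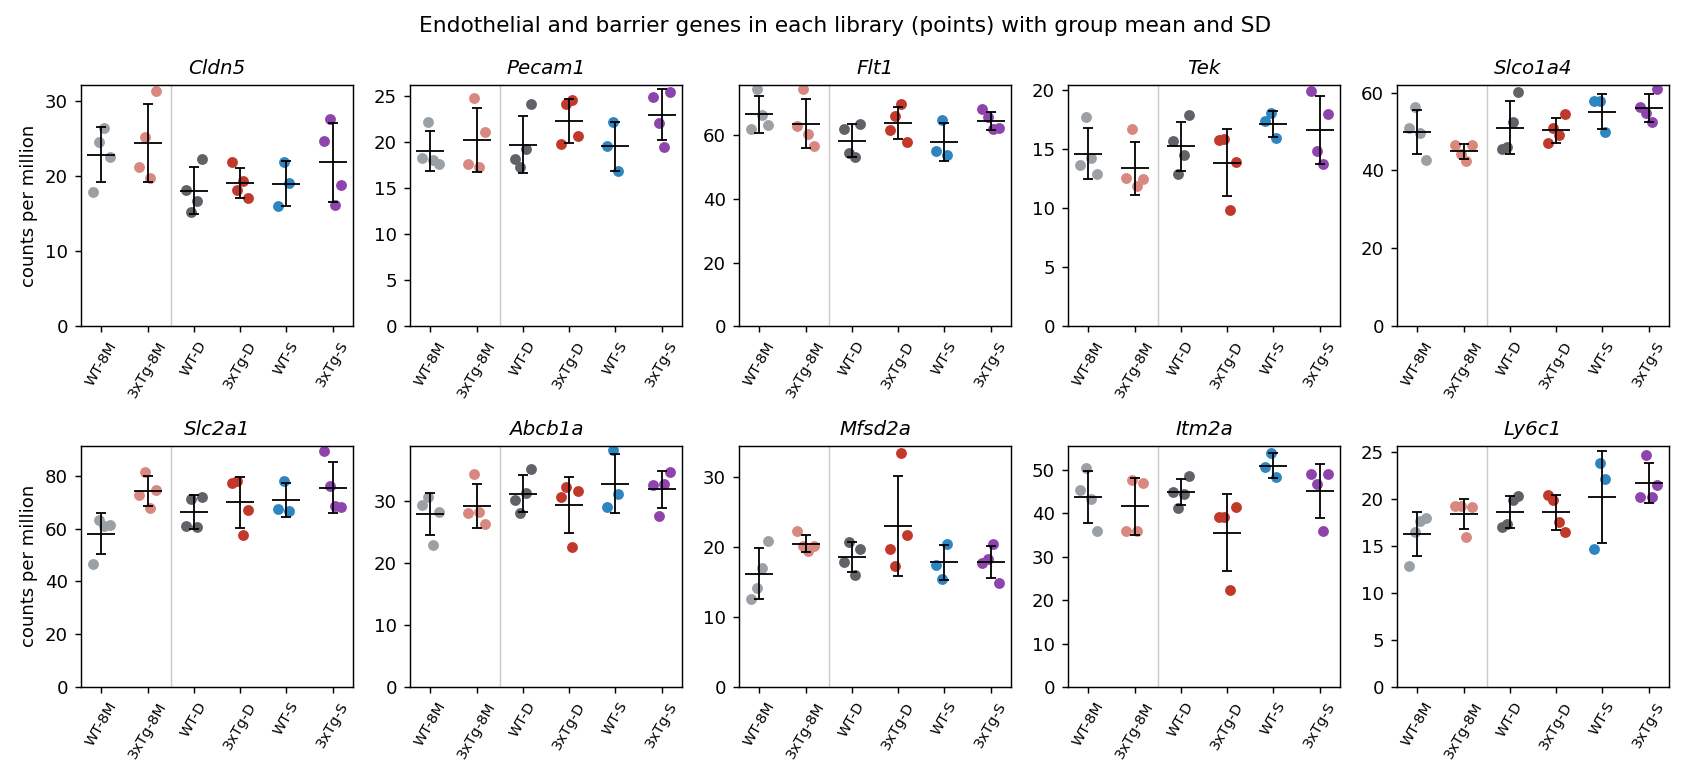
Each panel plots 1 member, with CPM on the vertical axis and the 6 groups on the horizontal axis; points are libraries, bars group means and error bars the SD. The groups overlap in most panels, the 8-month groups of Slc2a1 do not, and 3xTg-D replicate 3 lies apart at 22.2 CPM for Itm2a and 33.4 CPM for Mfsd2a.

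At 8 months, transcript levels of the barrier genes were close between the strains, and the transporter Slc2a1 showed the clearest difference. Slc2a1 was at 46.6, 63.3, 61.1 and 61.5 CPM in WT-8M and at 72.7, 81.6, 67.8 and 74.5 CPM in 3xTg-8M. Every 3xTg-8M library was above every WT-8M library for this gene; over all genes tested, the groups did not overlap, in either direction, for 11.1%. The group means were 58.1 ± 7.73 and 74.1 ± 5.74 CPM (SD, n = 4 each), a 1.28-fold difference with a 95% interval of 1.11 to 1.48. In edgeR's quasi-likelihood test with Benjamini-Hochberg adjustment over all genes the log2 fold change of 0.36 (SE 0.10) had adjusted p = 0.0763, so that Slc2a1 did not pass 0.05. It passed by DESeq2's likelihood ratio test (adjusted p = 0.0306) and in edgeR with no filter on low counts (adjusted p = 0.00253). The lowest library, WT-8M replicate 1, bore on the size: without it the log2 fold change was 0.26 with adjusted p = 0.111.

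Mfsd2a was at 12.6, 14.1, 17.0 and 20.8 CPM in WT-8M and at 22.2, 20.1, 19.4 and 20.1 CPM in 3xTg-8M. The 3xTg-8M values lay close together, and of the WT-8M libraries replicate 4 reached into their range. The log2 fold change was 0.35 (SE 0.14; 95% interval 0.04 to 0.65; edgeR adjusted p = 0.235). Without WT-8M replicate 4 it was 0.51 with adjusted p = 0.0367, which is past the threshold. Leaving out WT-8M replicate 1 instead moved it the other way, to 0.22 with edgeR adjusted p = 0.467.

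None of the 10 members passed an adjusted p of 0.05 between the 8-month groups in edgeR (0 of 10; 2.65% of the 15483 genes tested did), and 1 of 10, Slc2a1, did in DESeq2. At an unadjusted p under 0.05, Slc2a1 and Mfsd2a passed (2 of 10, against 17.3% of all genes). Among the junction and receptor genes the log2 fold changes were 0.11 for Cldn5 (-0.05 without 3xTg-8M replicate 4), 0.08 for Pecam1, -0.06 for Flt1 and -0.12 for Tek. The other transporters gave 0.06 for Abcb1a and -0.14 for Slco1a4, and the surface proteins 0.19 for Ly6c1 and -0.07 for Itm2a. In all, 6 members were higher and 4 lower in 3xTg-8M, with a median log2 fold change of 0.07, against 51.3% higher and a median of 0.01 over all genes. Without WT-8M replicate 1, 5 were higher and 5 lower, with a median of 0.03, and 1 of 10 passed at an unadjusted p under 0.05 in edgeR. The 95% intervals of the 10 members together spanned -0.40 to 0.65.

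**Figure D2:**
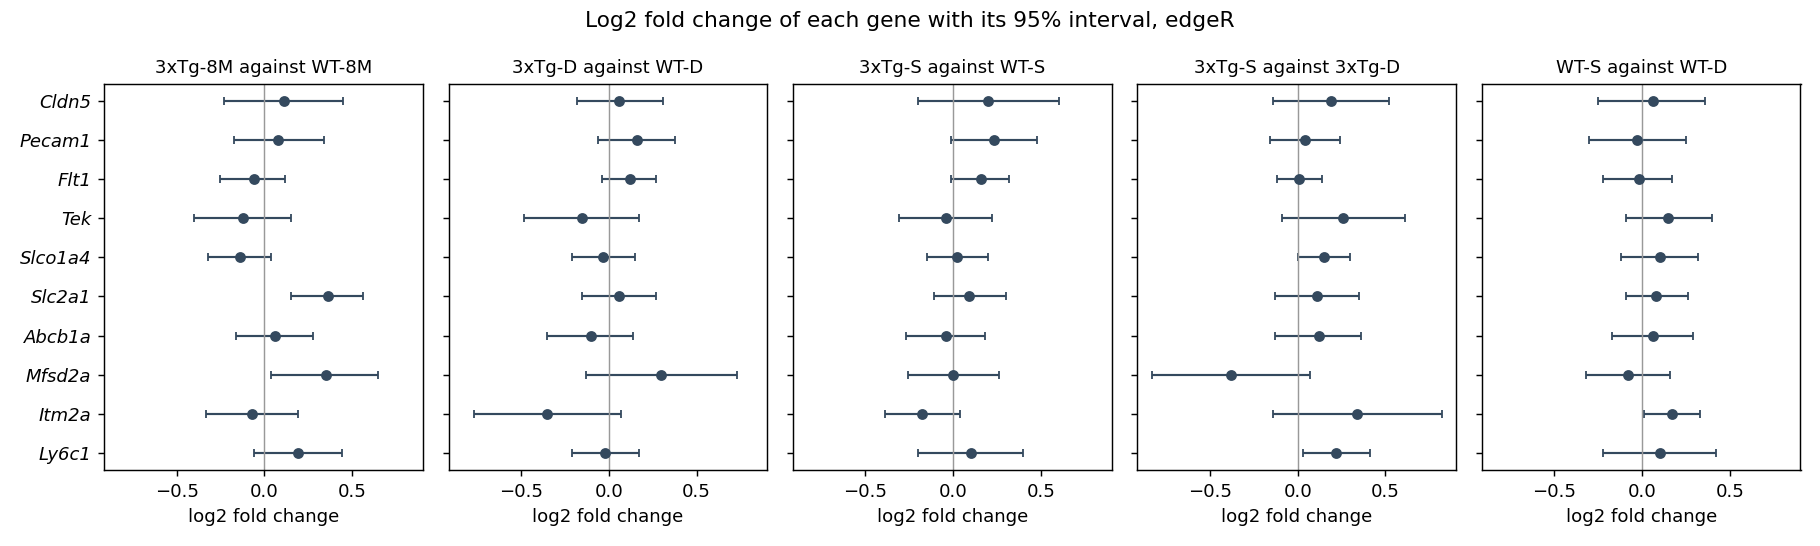
Each panel is 1 comparison of groups and plots the log2 fold change of the 10 members on the horizontal axis with its 95% interval from edgeR. Most intervals cross 0; that of Slc2a1 between the 8-month groups runs from 0.15 to 0.56.

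Between the strains at 10 months the members differed in different directions: Pecam1 and Flt1 were higher and Itm2a lower in 3xTg mice, none past the adjusted threshold. With treatment as a term over 15 libraries, 0 of 10 members passed an adjusted p of 0.05 in edgeR or DESeq2 (6.18% of the 15864 genes tested did in edgeR), and 3 of 10 passed at an unadjusted p under 0.05, against 19.3% of all genes. Of the members, 6 were higher and 4 lower, with a median log2 fold change of 0.06 against 0.00 over all genes, and the 95% intervals together spanned -0.51 to 0.44.

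Pecam1 was at 18.2, 17.3, 19.2 and 24.2 CPM in WT-D and at 19.5, 22.1 and 16.9 CPM in WT-S. It was at 19.8, 24.1, 24.5 and 20.6 CPM in 3xTg-D and at 24.9, 22.1, 19.4 and 25.5 CPM in 3xTg-S. The strains overlapped, since the highest WT-D library lay among the 3xTg values. The strain term was 0.20 on the log2 scale (SE 0.08; edgeR adjusted p = 0.169).

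Flt1 was at 62.0, 54.5, 53.2 and 63.6 CPM in WT-D and at 55.0, 64.7 and 54.0 CPM in WT-S. It was at 61.5, 66.2, 69.8 and 58.0 CPM in 3xTg-D and at 68.2, 65.6, 62.1 and 62.5 CPM in 3xTg-S. The upper WT libraries overlapped the lower 3xTg libraries. The strain term was 0.14 on the log2 scale (SE 0.05; edgeR adjusted p = 0.142).

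Itm2a was at 44.9, 41.2, 44.3 and 48.6 CPM in WT-D and at 39.0, 39.2, 22.2 and 41.5 CPM in 3xTg-D. It was at 50.5, 53.9 and 48.2 CPM in WT-S and at 48.9, 46.6, 35.8 and 49.0 CPM in 3xTg-S. All 3xTg-D libraries but replicate 4, which was just above the lowest WT-D library, lay below the WT-D range, and 1 of them, replicate 3, lay far below. The strain term was -0.27 on the log2 scale (SE 0.11; edgeR adjusted p = 0.211), and without 3xTg-D replicate 3 it was -0.17 (SE 0.06; adjusted p = 0.115).

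Taken by treatment, 0 of 10 members passed between 3xTg-D and WT-D in edgeR or DESeq2 (1.40% of the 15528 genes tested did in edgeR), nor at an unadjusted p under 0.05 (12.8% of all genes did). Itm2a had the lowest log2 fold change, -0.35 (SE 0.18; edgeR adjusted p = 0.490), and Mfsd2a the highest, 0.30 (SE 0.19; adjusted p = 0.572). The size of both depended on 3xTg-D replicate 3: without it Itm2a was at -0.16 (SE 0.07; adjusted p = 0.412), Mfsd2a at 0.08 and Slc2a1 at 0.17 (SE 0.07; adjusted p = 0.420). Itm2a and Slc2a1 then passed at an unadjusted p under 0.05 (2 of 10), and 8 of 10 members were higher in 3xTg-D. Between 3xTg-S and WT-S, 0 of 10 passed by either tool (1.30% of 15664 genes did in edgeR) and 0 of 10 at an unadjusted p under 0.05 (10.5% of genes). The log2 fold changes there were 0.23 for Pecam1 (SE 0.11; adjusted p = 0.518), 0.20 for Cldn5, 0.16 for Flt1 and -0.18 for Itm2a. The 3xTg-S group was also set against WT-D, which it differs from in strain and treatment: 0 of 10 members passed by either tool (2.32% of 15567 genes did in edgeR), and Ly6c1, at 0.20, passed at an unadjusted p under 0.05 (edgeR adjusted p = 0.257; 16.7% of genes did). These comparisons use the same libraries as the strain term and as the inhibitor comparisons, so they are not independent of them.

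Under the inhibitor, 8 of 10 members were higher on average than under vehicle, by small amounts that did not pass the adjusted threshold. With strain as a term over 15 libraries, 0 of 10 members and 0 of all 15864 genes passed an adjusted p of 0.05 in edgeR (0%). At an unadjusted p under 0.05, 2 of 10 members and 13.5% of genes passed. DESeq2 called 43 genes and 0 of the 5 members to which it gave an adjusted p, and it gave none to Cldn5, Pecam1, Tek, Mfsd2a and Ly6c1. The median log2 fold change of the members was 0.11, against 0.00 over all genes, of which 50.2% were higher. The 95% intervals of the members together spanned -0.51 to 0.51.

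The 2 members past the unadjusted threshold were Itm2a, at 0.26 on the log2 scale (SE 0.11; edgeR adjusted p = 0.336), and the transporter Slco1a4, at 0.13 (SE 0.06; adjusted p = 0.366). Slco1a4 was at 45.5, 46.1, 52.4 and 60.1 CPM in WT-D and at 57.7, 57.9 and 49.8 CPM in WT-S. In 3xTg mice it was at 47.0, 50.9, 49.1 and 54.4 CPM under vehicle and at 56.2, 54.7, 52.4 and 61.0 CPM under the inhibitor. The treated and vehicle libraries overlapped in both strains. Without 3xTg-D replicate 3, Itm2a was at 0.17 (SE 0.06; adjusted p = 0.321) and Slco1a4 at 0.12, which no longer passed unadjusted.

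The receptor Tek gave 0.21 (SE 0.10; edgeR adjusted p = 0.381) for inhibitor against vehicle and Flt1 gave -0.01. Cldn5 was at 0.13 and Pecam1 at 0.01, and among the transporters Slc2a1 was at 0.10 and Abcb1a at 0.09. Ly6c1 was at 0.16, and with the trend of fold change on gene length and G+C content removed Ly6c1 was at 0.06 and Cldn5 at 0.02. Mfsd2a moved the other way, at -0.24 (SE 0.13; 95% interval -0.51 to 0.03; adjusted p = 0.420). It was at 17.8, 20.7, 16.0 and 19.7 CPM in WT-D and at 17.5, 15.4 and 20.4 CPM in WT-S. It was at 19.7, 17.2, 33.4 and 21.7 CPM in 3xTg-D and at 17.6, 18.2, 20.5 and 14.9 CPM in 3xTg-S. The value of 33.4 CPM stood above all other libraries of the study, and without that library the difference was -0.11 (adjusted p = 0.597).

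Within 3xTg mice, 0 of 10 members and 0 of 15530 genes passed between 3xTg-S and 3xTg-D in edgeR (0%). DESeq2 called 14 genes and 0 of the 4 members to which it gave an adjusted p (Flt1, Slco1a4, Slc2a1 and Itm2a). Here 9 of 10 members were higher in 3xTg-S, with a median log2 fold change of 0.13 against -0.00 over all genes, of which 49.5% were higher. Ly6c1, at 0.22 (SE 0.09; edgeR adjusted p = 0.407), and Slco1a4, at 0.15 (SE 0.07; adjusted p = 0.439), passed at an unadjusted p under 0.05 (2 of 10, against 11.1% of genes). Ly6c1 was at 20.4, 19.9, 17.6 and 16.5 CPM in 3xTg-D and at 20.2, 24.8, 20.3 and 21.6 CPM in 3xTg-S, so that the groups overlapped near 20.3 CPM. With the length and G+C trend removed Ly6c1 was at 0.09 (adjusted p = 0.898). Without 3xTg-D replicate 3 the median was 0.10 and 0 of 10 members passed unadjusted. Within WT mice, 0 of 10 members and 0 of 15724 genes passed between WT-S and WT-D in edgeR (0%) or DESeq2. The members ran from -0.08 to 0.17 there, and Itm2a, at 0.17 (SE 0.07; edgeR adjusted p = 0.991), passed unadjusted (1 of 10, against 3.28% of genes).

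Whether the inhibitor acted unequally in the strains was tested as an interaction. In edgeR and DESeq2, 0 of 10 members and 0 of 16262 genes passed (0%), and at an unadjusted p under 0.05 the shares were 0 of 10 and 2.29%. The interaction ran from -0.30 in Mfsd2a (SE 0.25) to 0.17 in Itm2a on the log2 scale, and its 95% intervals together spanned -0.83 to 0.67. The strain difference at 8 months was set against that at 10 months under vehicle in the same way, over the 16 libraries without inhibitor. By edgeR or DESeq2, 0 of 10 members passed (0.0621% of 16108 genes did in edgeR), and 0 of 10 at an unadjusted p under 0.05 (9.38% of genes). Slc2a1 had the largest difference of the members, 0.29 (SE 0.15; adjusted p = 0.543), so that its larger strain difference at 8 months was not separated from that at 10 months.

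A single library, 3xTg-D replicate 3, stood apart in several members at 10 months. On the log2 scale it lay 0.63 below its group's mean for Itm2a, 0.46 below for Tek, 0.36 below for Abcb1a and 0.27 below for Slc2a1. It lay 0.58 above for Mfsd2a, 0.15 above for Pecam1 and 0.13 above for Flt1, so that the members did not move together in it. Of 11650 genes averaging 5 CPM or more, 193 lay more than 0.5 from the group mean in this library, as against 188 in WT-8M replicate 1 and 28 to 129 in the others. The list of 10 genes of leaky or activated endothelium summed to 121 CPM in it, within the 112 to 131 CPM of the other 3xTg-D libraries, and Plvap, a protein of endothelial openings, was at 9.75 CPM against 10.2 to 11.7. Of this list, Lcn2, an acute-phase protein also made by astrocytes, had 118 counts (7.19 CPM) against 3 to 11 counts in the other 3xTg-D libraries and 8 to 36 in 3xTg-S. The leukocyte adhesion genes Sele and Selp, chosen for mention after their values were seen, had 57 and 40 counts there, against 0 to 2 and 0 to 3 counts in the other 3xTg-D libraries, and Selp had 19 counts in 3xTg-S replicate 1. Markers of other cells went in different directions in it. Blood markers were low, at 4.87 CPM summed (37.3 to 67.8 in the other 3xTg-D libraries). So were microglia markers at 342 CPM (434 to 515) and oligodendrocyte markers at 3836 CPM (5101 to 6005). Choroid plexus markers were at 130 CPM (40.5 to 118) and arterial smooth muscle markers at 106 CPM (64.1 to 96.0), above the other 3xTg-D libraries. Meningeal fibroblast markers (111 CPM) and astrocyte markers (5745 CPM) lay within the range of those libraries. The part of these in the members' values was not tested.

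Apart from group differences, most members varied together from library to library. With group means removed from log2 CPM, the median Pearson r over the 45 pairs of members was 0.34 across 23 libraries, with 37 pairs above 0, 24 above 0.3 and a range of -0.76 to 0.82. The libraries share depth and tissue composition, and no p is attached to these values. Itm2a and Tek, whose promoters are printed above, were the closest pair (r = 0.82; Spearman's rho = 0.80; r = 0.74 without the 2 libraries farthest from the median). Tek also varied with Abcb1a (r = 0.71; rho = 0.66), and Pecam1 with Flt1 (r = 0.70) and Cldn5 with Ly6c1 (r = 0.65). Mfsd2a was the exception: 6 of its 9 pairs were below 0, with a median of -0.20, and with Itm2a the value was r = -0.76 (rho = -0.61).

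**Figure D3:**
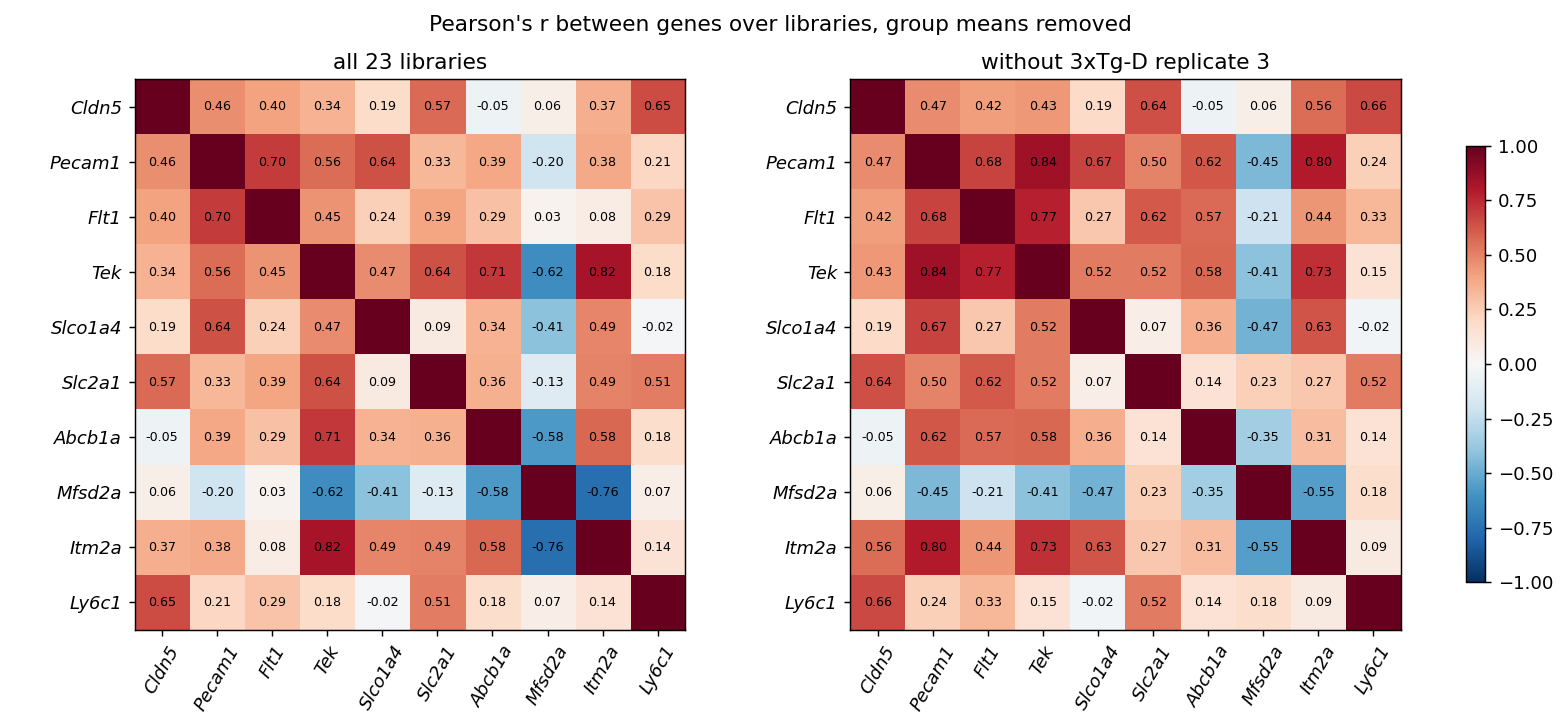
Both panels show Pearson's r for each pair of members over libraries with group means removed, as color from -1 to 1, with all 23 libraries and without 3xTg-D replicate 3. The row of Mfsd2a is mostly negative and the rows of Tek and Itm2a mostly positive in both.

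Without 3xTg-D replicate 3 the median r was 0.36 and 37 pairs were still above 0. The value for Itm2a with Tek was then 0.73, that for Pecam1 with Tek went from 0.56 to 0.84, and the first was below those for Pecam1 with Itm2a (0.80) and Flt1 with Tek (0.77). Of the relations of Mfsd2a, those with Itm2a (-0.55), Tek (from -0.62 to -0.41) and Abcb1a (from -0.58 to -0.35) were then nearer 0. Those with Pecam1 (from -0.20 to -0.45), Flt1 (from 0.03 to -0.21) and Slco1a4 (from -0.41 to -0.47) were farther below 0, and that with Slc2a1 went from -0.13 to 0.23. The median for Mfsd2a was -0.35 without that library, again with 6 of 9 pairs below 0.

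**Figure D4:**
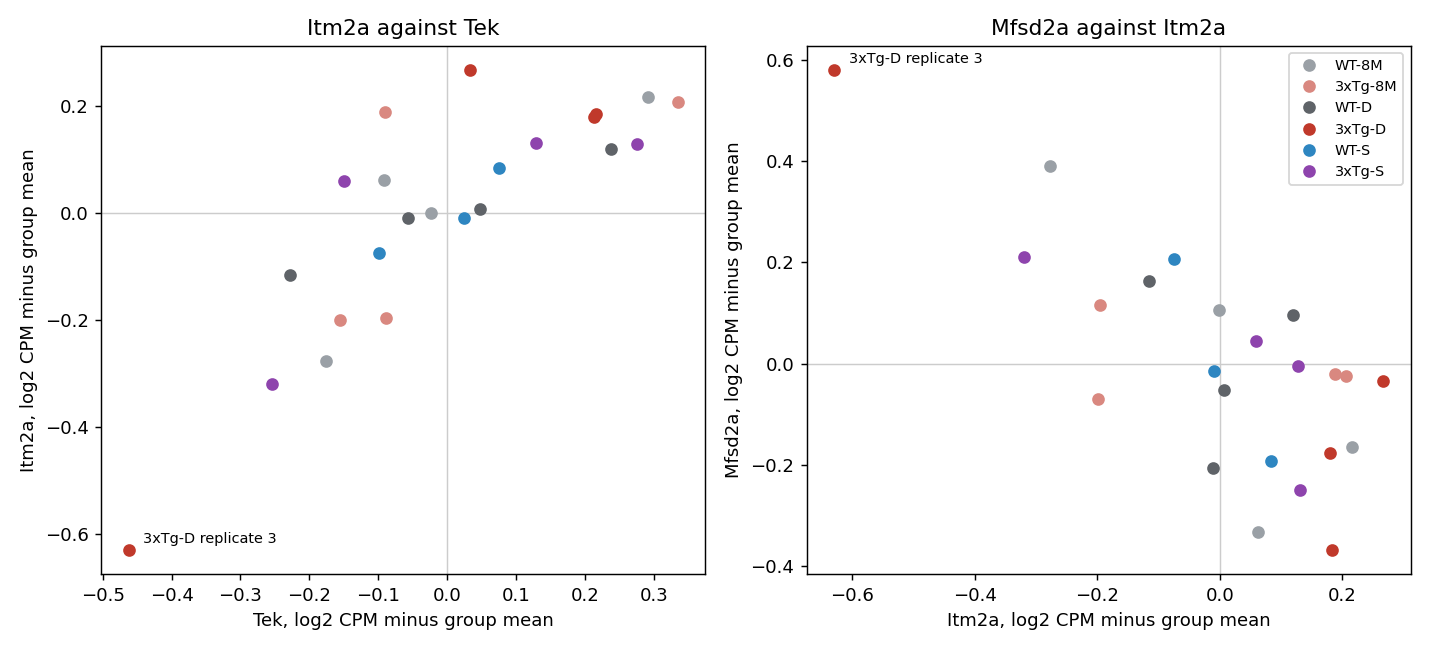
Each point is 1 of the 23 libraries, as the deviation of its log2 CPM from its group mean, for Itm2a against Tek and for Mfsd2a against Itm2a. 3xTg-D replicate 3 lies at -0.63 for Itm2a, -0.46 for Tek and 0.58 for Mfsd2a, at the edge of both plots.

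A member score, the mean of the 10 standardized deviations in each library, was compared with all 11650 genes. The most alike were Cdh5, the cadherin of endothelial junctions (r = 0.86), Efemp1, an extracellular matrix protein (0.85), and Myl9, a myosin light chain of smooth muscle (0.84). Next came the pericyte gene Vtn (0.84), the endothelial surface protein Podxl (0.84), Nes (0.83), Slc13a3 (0.83), Vwf, the von Willebrand factor of endothelium (0.82), and the contractile genes Cald1 (0.82) and Acta2 (0.82). Of these 10 genes, 6 were again among the closest 10 without 3xTg-D replicate 3. Across the 23 libraries the score varied with the summed level of pericyte markers (r = 0.88) and endothelial transcription factors (0.87). It also varied with genes of leaky or activated endothelium (0.79) and arterial smooth muscle markers (0.77). The values were 0.75 for the further junction and surface genes and 0.53 for the ligands of the member receptors. For the further transporters the value was 0.34 and for the angiogenic and Wnt receptors 0.31. The lists of other cells were mostly lower. Among them, the values were 0.27 for oligodendrocytes, 0.21 for neurons (Spearman's rho = 0.45), 0.03 for microglia and -0.08 for astrocytes.

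Other genes of the barrier and the vessel wall were read from lists. Their genes were chosen, as the members were, for known roles. At 8 months, 0 of 12 genes of endothelial junctions and surface, 0 of 10 further transporters, 0 of 9 endothelial transcription factors, 0 of 10 pericyte genes, 0 of 5 ligands of the member receptors and 0 of 7 tested genes of leaky or activated endothelium passed in edgeR. Of 9 angiogenic and Wnt receptors 1 passed, Kdr, the main signaling receptor for VEGF, and it fell in 3xTg-8M. Over all genes tested, 2.65% passed in this comparison. Kdr was at 20.2, 18.4, 19.7 and 16.9 CPM in WT-8M and at 13.6, 17.3, 11.7 and 12.2 CPM in 3xTg-8M, with 1 library of the latter inside the WT-8M range. Its log2 fold change was -0.46 (SE 0.11; adjusted p = 0.0497), and the call was lost in 7 of 8 fits that left out a library, with adjusted p up to 0.149. At 10 months under vehicle Kdr was at 0.07, and its difference between the ages was -0.53 (SE 0.18; adjusted p = 0.457). The 10 further transporters summed to 415 to 451 CPM in WT-8M and to 369 to 397 CPM in 3xTg-8M, and these sums were not tested. Those with the smallest p were Slc16a1, the lactate carrier, at -0.40 (edgeR adjusted p = 0.0509) and Tfrc, the transferrin receptor, at -0.41 (adjusted p = 0.0770). Without WT-8M replicate 1, Slc16a1 was at -0.45 (adjusted p = 0.0285), which makes it 1 of 10. In that fit 5 of the 10 transporters were higher and 5 lower in 3xTg-8M, with a median log2 fold change of 0.00.

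Between the strains at 10 months, with treatment as a term, 6.18% of all genes tested passed in edgeR. Of 12 junction and surface genes 1 passed and fell, Cd34, a sialomucin of endothelium. Cd34 was at 52.0, 43.8, 59.9 and 54.2 CPM in WT-D, at 42.2, 46.6, 47.5 and 40.0 CPM in 3xTg-D, at 52.0, 57.1 and 59.3 CPM in WT-S and at 38.9, 48.6, 47.4 and 48.9 CPM in 3xTg-S. The strain term was -0.28 (SE 0.06; edgeR adjusted p = 0.0117), and it passed in all 21 alternatives. Of 9 receptors 1 rose, Adgrl4, an adhesion receptor of endothelium, at 0.27 (SE 0.07; adjusted p = 0.0294). Of 5 ligands of the member receptors 1 rose, Vegfa, a ligand of Flt1, at 0.19 (SE 0.05; adjusted p = 0.0430). The call was lost in 6 of 21 alternatives for Adgrl4 and in 11 of 21 for Vegfa, among them a block for runs of animal numbers (adjusted p = 0.0792). Lcn2 also passed, at 3.39 (SE 0.92; adjusted p = 0.0469), and lost its call in 7 of 16 alternatives (adjusted p up to 0.0927); without 3xTg-D replicate 3 it did not pass the filter on low counts and had no test. None of the 10 transporters, 9 transcription factors or 10 pericyte genes passed, while 4 of 8 microglia genes and 1 of 8 oligodendrocyte genes rose. These counts depended on 3xTg-D replicate 3. Without it 5 of 8 microglia genes and 5 of 8 oligodendrocyte genes passed and rose. In the same fit 1 of 8 neuron genes passed and fell, and 916 of all genes passed.

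For inhibitor against vehicle, 0 genes of these lists passed in edgeR. The median log2 fold change was 0.16 for the 12 junction and surface genes (10 higher) and 0.19 for the 9 endothelial transcription factors (7 higher). Of the transcription factors, 4 of 9 passed at an unadjusted p under 0.05, against 13.5% of all genes, and 2 of 9 without 3xTg-D replicate 3. It was 0.03 for the 10 transporters, 0.06 for the 9 receptors, 0.12 for the 5 ligands, 0.15 for the 8 tested of 10 genes of leaky or activated endothelium and 0.09 for the 10 pericyte genes. The transcription factors with the smallest p were Sox18, at 0.37 (adjusted p = 0.227), and Klf2, a factor induced by blood flow, at 0.49. Of the pericyte genes Kcnj8, a potassium channel subunit, led at 0.51 (adjusted p = 0.227), and of the transporters Slc38a5, an amino acid carrier, at 0.53 (adjusted p = 0.236).

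Markers of other cells that a dissected hippocampus can hold moved in the same comparison. All 6 arterial smooth muscle genes, all 8 meningeal fibroblast genes, all 7 tested of 10 choroid plexus genes and all 5 blood genes were higher under the inhibitor, with median log2 fold changes of 0.43, 0.53, 0.64 and 0.99. At 8 months the medians in 3xTg-8M were 0.69 for smooth muscle (5 of 6 genes tested), 0.80 for choroid plexus (5 of 10 tested), 0.25 for fibroblasts and 1.12 for blood, and 0 genes of these lists passed in either comparison. These lists were uneven over libraries: choroid plexus markers summed to 373 CPM in WT-S replicate 2 and to 368 CPM in 3xTg-8M replicate 4 but to 36.2 to 44.8 CPM in WT-D. Blood markers ran from 4.87 CPM in 3xTg-D to 213 CPM in 3xTg-S. The members themselves summed to 309 to 403 CPM, neuron markers to 6485 to 7268 CPM and astrocyte markers to 5040 to 6604 CPM. Across libraries the member score varied with choroid plexus markers at r = 0.30, with blood markers at 0.36 and with fibroblast markers at 0.43, and the part of these cells in the members' differences was not tested.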

How the data were processed

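RNA-seq was made from hippocampus by poly(A) selection (KAPA mRNA HyperPrep) and sequenced single-end. Per the labels and the study's methods, the authors trimmed reads with Trimmomatic 0.35, aligned them to GRCm38 with STAR 2.5.1b and counted reads per gene. They deposited 1 table of raw counts for all libraries, in which 4 summary lines that name no gene hold 24.7% to 30.9% of reads and were left out. Whether molecular barcodes were collapsed is not given in the sources used here. The labels do not say whether samples of a group came from separate animals beyond their names, so p-values measure the spread between these samples.

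Each comparison was fitted on the whole table with edgeR 4.0.16 (filterByExpr, TMM, robust quasi-likelihood test; R 4.3.3), with Benjamini-Hochberg adjustment over all genes and a threshold of 0.05; intervals are 95%. Scripts were tested on simulated data. Alternatives were DESeq2 1.42.0 (size factors, likelihood ratio test), no filter, an unadjusted threshold of 0.01, a length and G+C correction, 1 fit of 15 libraries, a block for runs of animal numbers, and leaving out each library. Correlations used log2 CPM with a prior count of 2. The members and lists were chosen with earlier results of these data known. Beyond members, named genes are those past the threshold in a vascular list, the 2 with the smallest p in a list with none, and the 10 most alike in pattern; exceptions are stated. The age-by-strain comparison, and the list counts and correlations without single libraries, were added after seeing the data. Total counts per library, 12802267 to 36686413, set the precision of low genes. A further element of the 3xTg genotype is not reported here.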

Additional observations from a re-analysis of the deposited data

Results flagged for a closer look

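In groups of 4 libraries, 1 library stood far from the other 3 in 8 of the 70 groups examined. For independent values chance gives about 1 in 20. The genes were read in the same libraries and are not independent, so these shares cannot show an excess. Of the members, Itm2a was at 22.2 CPM and Abcb1a at 22.6 CPM in 3xTg-D replicate 3, against 39.0 to 41.5 and 30.6 to 32.2 CPM in the other 3xTg-D libraries. Slc2a1 was at 46.6 CPM in WT-8M replicate 1, against 61.1 to 63.3 CPM in the others, and Pecam1 was at 22.2 CPM in WT-8M replicate 2, against 17.6 to 18.3 CPM. In 3xTg-8M, Tek was at 16.7 CPM in replicate 2 (others 11.9 to 12.5 CPM) and Ly6c1 at 16.0 CPM in replicate 3 (others 19.2 to 19.3 CPM). Of the other vascular genes, Cd34 was at 38.9 CPM and Vegfa at 58.9 CPM in 3xTg-S replicate 1, against 47.4 to 48.9 and 45.2 to 46.9 CPM in the others of that group.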

How the results depend on the processing

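No member was called in a main fit, so there was little that an alternative could reverse. Over 100 fitted member values and 1700 alternatives, 4 gained a call, none reversed one, and 112 values that were not called changed sign. The number of members called at 8 months was 0, and 1 (Slc2a1) with no filter on low counts, by DESeq2 and at an unadjusted p under 0.01; it ranged from 0 to 1 over fits without 1 library, being 1 (Mfsd2a) without WT-8M replicate 4. In the other comparisons it was 0 in every alternative, where DESeq2 gave no adjusted p to 6 members for 3xTg-S against 3xTg-D and to 5 for inhibitor against vehicle. The number of all genes called moved more. Between the 8-month groups 411 became 877 with no filter, 712 by DESeq2, 1068 at an unadjusted p under 0.01, 235 without 3xTg-8M replicate 1 and 255 without 3xTg-8M replicate 2. For 3xTg-D against WT-D, 218 became 886, 414 and 750 in that order, 342 in 1 fit of 15 libraries and 136 without 3xTg-D replicate 2. For 3xTg-S against 3xTg-D, 0 became 204, 14 and 405, 2 with a block for runs of animal numbers and 1 without 3xTg-S replicate 3. For WT-S against WT-D, 0 became 27 with no filter, 60 unadjusted and 1 without WT-S replicate 3. For 3xTg-S against WT-S, 204 became 639 and 644, 329 without WT-S replicate 1 and 115 without 3xTg-S replicate 1. For 3xTg-S against WT-D, 361 became 1103, 583 and 1041, and 157 without 3xTg-S replicate 1. For inhibitor against vehicle, 0 became 1, 43 and 651, and 1 without WT-S replicate 1; for strain at 10 months, 981 became 1514 unadjusted; for the interaction, 0 became 55 unadjusted. For strain by age, 10 became 22, 20 and 344, and 16 without WT-D replicate 1. The cause of these shifts was not tested. The median correlation of the members was 0.27 to 0.36 over sets without 1 library. The labels give no replicate numbers, but the animal numbers in the 10-month sample names fall into runs across the groups. A block for these runs changed no member's call; of the vascular genes named, Vegfa lost its call (0.17; adjusted p = 0.0792). Nothing in the labels says that a run shares a litter or day. With 3 or 4 libraries a group, the precision is that of the printed 95% intervals.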
